A study of Ovis aries with 36 samples.

Results

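Cultured sheep ruminal epithelial cells in Hay medium were compared between harvests 4 h apart, T20 (44 h) and T16 (40 h), across all genes. The comparison was defined by the sample labels and holds 6 of the 36 RNA-seq libraries, 3 at T20 and 3 at T16. Cells of both groups had first been held for 2 h without serum and with 100 nM dexamethasone, a glucocorticoid that brings cellular clocks into step. They were then kept in Hay medium, which copies the volatile fatty acids (VFAs) of a hay-fed rumen with 60.8 mM acetate, 14.6 mM propionate, 9.2 mM butyrate, 3.0 mM isovalerate, 1.2 mM valerate and 1.0 mM isobutyrate at pH 7.2. The stated VFA total was 89.79 mM. Acetate, propionate and butyrate were sodium salts, and no cells free of added VFAs entered the comparison. The other 30 libraries hold the earlier harvests in Hay medium (T0, T4, T8 and T12, in steps of 4 h from 24 h) and all 6 harvests in Grain medium, with a stated VFA total of 115.78 mM and 16.0 mM butyrate. The labels leave unclear when the count of hours starts. They also do not say whether replicates are separate cultures or animals, so p-values measure only the spread between these libraries, which may be technical.

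The rumen epithelium absorbs the VFAs that microbes release from feed and turns part of the butyrate into ketone bodies. Butyrate also inhibits histone deacetylases and so changes the transcription of many genes. The circadian clock is a feedback loop in which CLOCK and BMAL1 switch on the PER and CRY genes, whose products then repress CLOCK and BMAL1, while the REV-ERB proteins (NR1D1, NR1D2) and the ROR proteins act on BMAL1 transcription in opposite directions. Actin, myosin and their binding proteins form the stress fibres through which cultured cells pull on the matrix. The transcription factors SRF, with its actin-sensing cofactor MRTF, and YAP are known activators of many contractile and matrix genes.

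The 6 libraries held 55.1 to 61.3 M counts, within the 52.4 to 68.1 M of the whole series, and 22488 of 35223 genes passed the low-count filter and were tested. Levels are given in CPM, counts scaled to library size. T16 replicate 3 stood apart from the other libraries of its group. Its counts differed from those of the other 2 T16 libraries with a chi-square per degree of freedom of 25.7 and 19.1, whereas the other T16 pair had 6.05 and the T20 pairs had 7.29 to 12.1. On the second principal component of the 18 Hay libraries it lay at -14.1, against -7.42 and 1.23 for the other T16 libraries. That component held 7.11% of the variance, and the T20 libraries were also spread along it, at -1.90, 6.97 and 12.4 for replicates 1, 2 and 3. Several counts that rest on T16 replicate 3 are given with and without it. Mitochondrially encoded mRNAs made up 3.00 to 3.26% of counts at T20 and 3.22 to 3.31% at T16, and long non-coding RNAs 2.15 to 2.203% at T20 and 1.94 to 1.97% at T16. Their part in the results was not tested.

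The cells carried the labelled epithelial transcripts beside mesenchymal ones, whose markers had the higher summed level. All 16 basal keratinocyte markers listed were measured, and they summed to 1959 to 2079 CPM at T20 and 1971 to 2212 at T16. The 9 simple epithelial markers measured summed to 271 to 283 CPM at T20 and 272 to 299.5 at T16, and the differentiated keratinocyte markers to 108 to 114 CPM at T20 and 113 to 119.6 at T16. EPCAM, an adhesion molecule of epithelia, had 22.4 ± 1.11 CPM at T20 and 23.8 ± 0.852 at T16 (mean ± SD, n = 3 each, as for all such values below). CDH1, E-cadherin, stood at 65.6 ± 3.14 CPM at T20 and 63.6 ± 3.57 at T16. Of the 22 markers of differentiated keratinocytes 15 were tested, and KRT1 and KRT4 had no count in any of the 6 libraries. The 25 fibroblast and mesenchymal markers summed to 22892 to 23806 CPM at T20 and 24968 to 25725 at T16. The 13 measured immune cell markers summed to only 10.7 to 11.9 CPM at T20 and 10.2 to 12.3 at T16, and MS4A1 had no count.

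The genes called between T20 and T16 were a small share of those tested, and most of them were lower at T20 by small amounts. At an adjusted p below 0.05 in edgeR's quasi-likelihood test, 524 of 22488 genes (2.33%) were called: 107 (0.476%) were higher at T20 and 417 (1.85%) were lower. Only 11 of the called genes in each direction changed by at least 1.5-fold. The median change was -0.19 on the log2 scale among the 417 lower genes and 0.22 among the 107 higher ones, against 0.0009 over all genes tested. The lower genes were abundant, with a median of 105.1 CPM, the higher genes had a median of 40.5 CPM, and all tested genes had 5.62 CPM. Of 17728 protein-coding genes, 95 were higher and 409 lower, whereas 9 of 3682 long non-coding RNAs were higher and 3 lower. In 7.74% of all genes, called or not, the 3 libraries of T20 lay wholly above those of T16, and in 9.39% wholly below, which is 17.1% together. Without T16 replicate 3, 34 genes were higher and 159 lower. Without T20 replicate 2 these counts were 48 and 237, and without T20 replicate 3 they were 40 and 202. With the 6 libraries fitted alone they were 27 and 106.

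**Figure D1:**
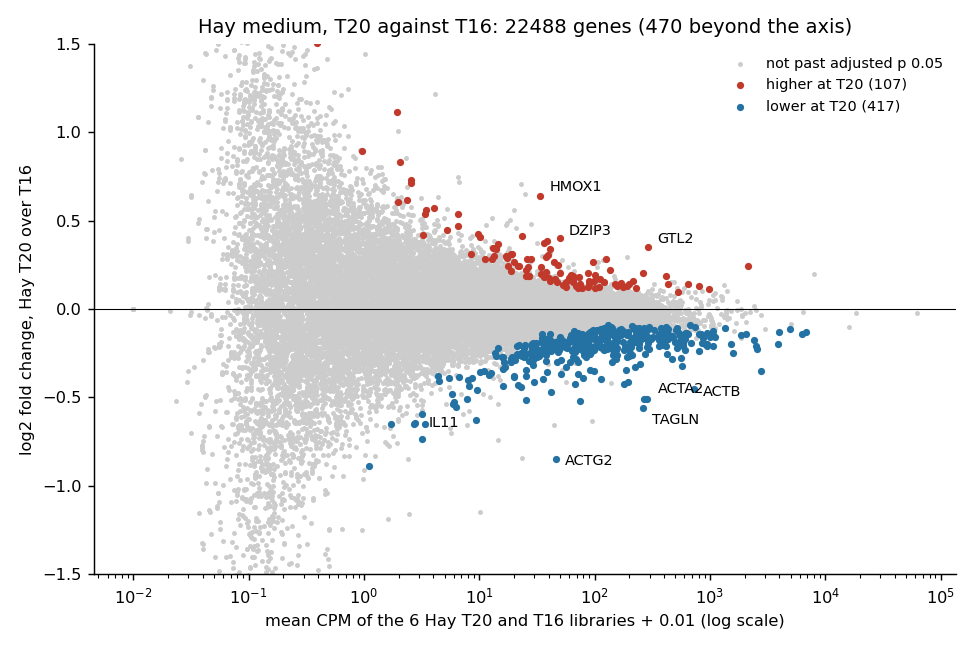
Each point is one of 22488 genes, with the mean CPM of the 6 libraries on the x axis (log scale) and the log2 fold change of T20 over T16 in Hay medium on the y axis. The 417 lower genes (blue) lie mostly above 10 CPM and within 0.5 of zero, with ACTG2, TAGLN and ACTA2 below that range, and HMOX1 stands highest among the labelled rises; 470 genes lie beyond the axis.

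Strongest falls and rises were ranked among called, named genes at 5 CPM or more whose libraries did not overlap between the groups. Genes with only an identifier, such as a LOC number, were not ranked. The strongest fall was that of a smooth muscle actin, and several of the other strong falls were in contractile genes. Of 13 smooth muscle and myofibroblast markers, 6 fell and none rose, where 1.85% of all genes fell and 0.476% rose. These shares over all genes also apply to each list count of this comparison below. The 13 markers had a list median of -0.16, and their summed level was 3221 to 3377 CPM at T20 and 3792 to 3941 CPM at T16. In bulk RNA, fewer cells of a type and less RNA per cell cannot be told apart. ACTG2, smooth muscle gamma actin, had 32.3, 33.7 and 32.5 CPM at T20, against 59.4, 57.8 and 60.4 CPM at T16. All T20 libraries lay far below all T16 libraries, and the log2 fold change was -0.85 (SE 0.065, adjusted p = 1.08e-10). Falls and rises below are given on the same log2 scale. TAGLN, transgelin, an actin-binding protein of contractile cells, had 220.1, 217 and 206 CPM at T20 and 290.1, 320.3 and 337 at T16, and fell by 0.56 (SE 0.050, adjusted p = 3.63e-09). ACTA2, the smooth muscle alpha actin that marks myofibroblasts, had 228, 246 and 236 CPM at T20 and 333, 331 and 345 at T16, and fell by 0.51 (SE 0.045, adjusted p = 3.42e-09). The groups of neither gene overlapped. TPM2, a tropomyosin that lies along actin filaments, fell by 0.42 (SE 0.057, adjusted p = 1.39e-05), with 153 ± 4.32 CPM at T20 and 204 ± 9.63 at T16. Reads of near-identical actin genes can be split between paralogs, and ACTG2 also overlaps another annotated gene, so the share of each actin is uncertain.

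Falls were also called outside the smooth muscle forms, in cytoplasmic actin, in partners of actin and in further muscle genes. In a list of actin cytoskeleton and focal adhesion genes that was put together after values had been seen, 19 of 37 measured genes fell and none rose, with a median of -0.11. PFN1, profilin, which feeds actin monomers to growing filaments, had 33.9, 36.1 and 35.4 CPM at T20 and 47.9, 47.9 and 50.2 at T16, and fell by 0.47 (SE 0.066, adjusted p = 2.62e-05). ACTB, the cytoplasmic beta actin, chosen after its values were seen, had 594, 644 and 609 CPM at T20 and 809, 808 and 907 at T16. It fell by 0.45 (SE 0.046, adjusted p = 4.85e-08), and no T20 library reached a T16 one. HSPB6, a small heat shock protein of muscle, fell by 0.52 (SE 0.10, adjusted p = 0.00270). LIMS2, an adaptor of integrin adhesions that overlaps another gene, fell by 0.46 (SE 0.096, adjusted p = 0.00443); without T16 replicate 3 its change was -0.40 and its call was lost (edgeR adjusted p = 0.06). ACTA1, skeletal muscle alpha actin, fell by 0.51 at 6.44 ± 0.897 CPM at T20 and 9.15 ± 0.544 at T16 (SE 0.12, adjusted p = 0.0189); this call was also lost without T16 replicate 3, and without T20 replicate 1. Without T16 replicate 3, 5 of the 13 smooth muscle markers and 17 of the 37 actin genes still passed. With the 6 libraries fitted alone, 4 and 9 did.

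Genes of the extracellular matrix fell with them. Of 35 matrix genes measured, 19 fell and none rose, and 33 had a lower fitted level at T20, with a list median of -0.15. TNC, tenascin C, a matrix glycoprotein of remodelling tissue, had 223, 223 and 224 CPM at T20 and 316, 318 and 317 at T16, with almost no spread within a group, and fell by 0.51 (SE 0.057, adjusted p = 5.52e-07). POSTN, periostin, a matrix protein secreted by fibroblasts, had 485, 524 and 504 CPM at T20 and 611, 647 and 635 at T16, and fell by 0.32 (SE 0.050, adjusted p = 9.33e-05). LOXL2, a lysyl oxidase that crosslinks collagen, fell by 0.26 (SE 0.036, adjusted p = 2.23e-05), and LOX, the founding member of that family, fell by 0.28 (SE 0.053, adjusted p = 0.00157). COL3A1, collagen III, had 2310.2, 2329 and 2276 CPM at T20 and 2642, 2748 and 2601 at T16, and fell by 0.21 (SE 0.034, adjusted p = 1.92e-04). COL1A1, collagen I, fell by 0.20 (SE 0.038, adjusted p = 0.00157) and COL6A3, a chain of the microfibrillar collagen VI, by 0.22 (SE 0.034, adjusted p = 1.16e-04). TNC, LOXL2 and COL1A1 overlap other annotated genes. Without T16 replicate 3, 15 of the 35 matrix genes passed, and with the 6 libraries alone 8 did. Of 25 fibroblast and mesenchymal markers, 7 fell and none rose (median -0.06), among them POSTN, COL3A1, COL1A1 and LOX.

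Of 28 targets of TGF-beta and YAP, 5 fell and none rose (median -0.04). ANKRD1, a target of YAP and of muscle transcription factors, had 867, 878 and 889.8 CPM at T20 and 994, 1004 and 1029.6 at T16, and fell by 0.20 (SE 0.032, adjusted p = 1.87e-04). TGFBI, a secreted adhesion protein induced by TGF-beta, fell by 0.25 (SE 0.042, adjusted p = 3.14e-04). TGFB1, the ligand itself, fell by 0.22 (SE 0.039, adjusted p = 6.67e-04) and overlaps another gene. IL11, a cytokine of the IL-6 family that TGF-beta induces in fibroblasts, had 6.57, 7.26 and 8.09 CPM at T20 and 10.7, 11.1 and 12.1 at T16. The groups were apart, and it fell by 0.63 (SE 0.087, adjusted p = 2.23e-05). It was the only one of 29 inflammation and NF-kB genes called. KLF2, a transcription factor that responds to fluid flow, fell by 0.55 (SE 0.095, adjusted p = 4.07e-04) at 5.04 ± 0.247 CPM at T20 and 7.40 ± 0.899 at T16. DUSP6, the phosphatase that restrains ERK, fell by 0.33 (SE 0.057, adjusted p = 4.14e-04), and JUNB, an AP-1 subunit, by 0.22 (SE 0.055, adjusted p = 0.0203); KLF2, DUSP6 and JUNB were the members called among 31 immediate early factors. The call of JUNB was lost without T16 replicate 3 and without T20 replicates 1 or 2. S100A2, a calcium-binding protein of basal epithelium that overlaps another gene, had 66.0, 60.6 and 56.1 CPM at T20 and 83.7, 87.7 and 90.1 at T16, and fell by 0.52 (SE 0.073, adjusted p = 2.62e-05). SELENOM, a selenoprotein of the endoplasmic reticulum that overlaps another gene, completes the 12 strongest falls (-0.48, SE 0.12, adjusted p = 0.0245), a call lost without T16 replicates 2 or 3 and without T20 replicates 1 or 2.

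**Figure D2:**
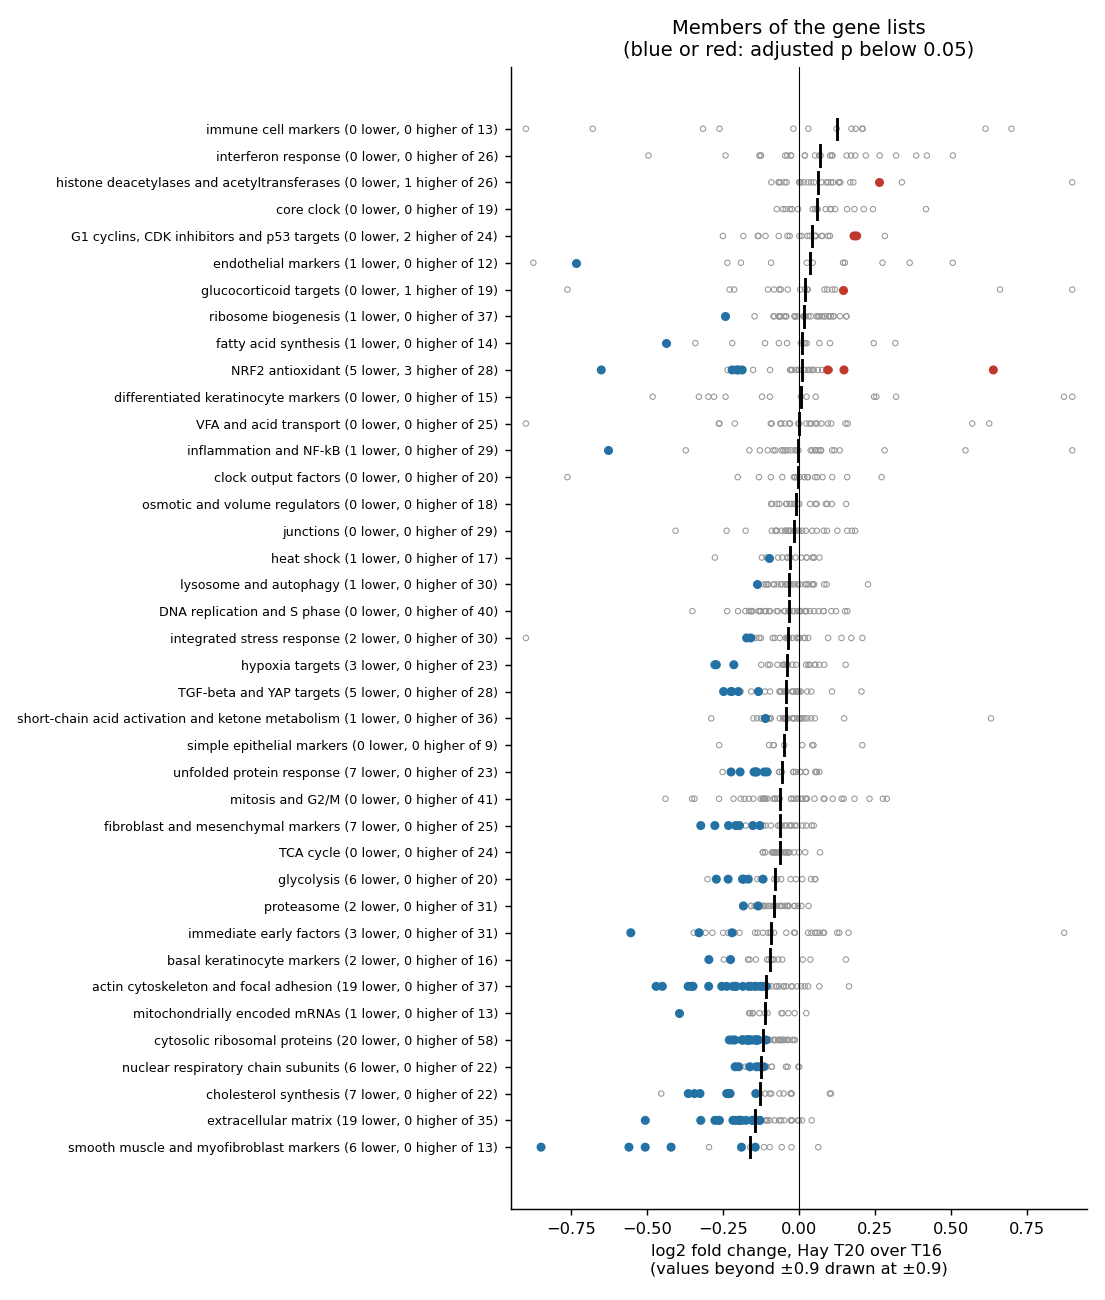
Each row is a gene list, ordered by the median log2 fold change of T20 over T16 in Hay medium (black bar), and each point is a measured member, filled blue where lower and red where higher past an adjusted p of 0.05. Smooth muscle markers (median -0.16), matrix genes (-0.15) and cholesterol synthesis (-0.13) lie lowest, and ribosomal proteins (-0.12) form a tight cluster left of zero; the actin list was put together after values had been seen.

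Of 22 cholesterol synthesis genes, 7 fell at T20, none rose and 15 were not called, with a list median of -0.13. INSIG1, the sterol-sensing brake on SREBP processing that SREBP itself induces, had 47.3, 43.1 and 43.6 CPM at T20 and 54.9, 57.8 and 59.9 at T16, and fell by 0.36 (SE 0.043, adjusted p = 1.13e-06). MSMO1, a sterol demethylase, fell by 0.34 (SE 0.041, adjusted p = 1.21e-06). IDI1, an isomerase of the isoprenoid pathway, fell by 0.23 (SE 0.037, adjusted p = 1.92e-04). FASN, fatty acid synthase, had 19.0, 19.4 and 19.7 CPM at T20 and 28.1, 28.3 and 22.4 at T16, so that replicate 3 was the lowest of the T16 libraries. FASN fell by 0.44 (SE 0.079, adjusted p = 8.05e-04) and was the only one of 14 fatty acid synthesis genes called. Leaving out any one library left 5 to 7 cholesterol genes past the test. IDI1 overlaps another annotated gene.

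Several genes of energy metabolism fell slightly. Of 20 glycolysis genes 6 fell and none rose (median -0.08), 4 of them without T16 replicate 3. SLC2A1, the glucose transporter GLUT1, had 168, 170.4 and 182 CPM at T20 and 219.8, 205 and 203 at T16, and fell by 0.27 (SE 0.044, adjusted p = 2.08e-04). TPI1, triosephosphate isomerase, fell by 0.23 (SE 0.034, adjusted p = 4.97e-05), LDHB, a lactate dehydrogenase, by 0.18 (SE 0.027, adjusted p = 4.71e-05) and GAPDH by 0.17 (SE 0.034, adjusted p = 0.00335). Of 23 hypoxia targets 3 fell, which were SLC2A1, LOX and P4HA2, a collagen prolyl hydroxylase that fell by 0.21 (SE 0.038, adjusted p = 5.70e-04), and none rose. Of 22 nuclear genes for respiratory chain subunits 6 fell and none rose (median -0.12), and 2 of the 22 passed without T16 replicate 3. ATP5F1A, of the ATP synthase, fell by 0.14 (SE 0.027, adjusted p = 0.00181) and kept its call without that library. Of 24 tricarboxylic acid cycle genes edgeR called none and DESeq2 1, and 8 had an unadjusted p below 0.05. Among 13 mitochondrially encoded mRNAs ND6 was called, with 99.2, 92.4 and 104 CPM at T20 and 129, 128 and 132 at T16 (-0.40 log2, SE 0.091, adjusted p = 0.0106). ND6 overlaps ND5 on the other strand, which reads without strand cannot part, and its call was lost without T16 replicate 3 or T20 replicate 2. SLC2A1 and P4HA2 also overlap other annotated genes. COX1, of complex IV, differed by -0.10 (SE 0.036, adjusted p = 0.138).

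Cytosolic ribosomal proteins were lower at T20 in a count that rested on a few libraries. All 58 had a negative fitted change (median -0.12), 20 were called lower and none higher. RPL3 had 581, 547 and 538 CPM at T20 and 637, 637 and 679 at T16, and fell by 0.23 (SE 0.036, adjusted p = 1.14e-04). RPS2 had 1006, 959 and 998 CPM at T20 and 1097, 1122 and 1212 at T16, and fell by 0.21 (SE 0.036, adjusted p = 4.07e-04). In both genes T16 replicate 3 was the highest library. Without it 3 of the 58 passed, and the list median was -0.07. Without T20 replicate 2 or 3, 7 passed each time, and without T16 replicate 1, 27 passed. Both genes overlap other annotated genes, and ribosomal protein genes have many pseudogenes among which reads can be split. Of 37 ribosome biogenesis genes only FBL, the methyltransferase fibrillarin, was called. It fell by 0.24 (SE 0.043, adjusted p = 6.79e-04), while the list median was 0.02.

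Calls among genes of the unfolded protein response, chaperones of the endoplasmic reticulum among them, also rested on a few libraries. Of 23 such genes 7 fell and none rose (median -0.06). Without T16 replicate 3 edgeR called none, with a list median of -0.04, and without T20 replicate 2 or 3 it called 1 each time. MANF, a secreted stress protein of the reticulum, had 69.4, 64.6 and 63.8 CPM at T20 and 71.5, 75.8 and 83.8 at T16, and fell by 0.22 (SE 0.051, adjusted p = 0.00975). PDIA3, a disulfide isomerase whose gene overlaps another, had 522, 558 and 539 CPM at T20 and 601, 613 and 637 at T16, and fell by 0.19 (SE 0.042, adjusted p = 0.00550). CALR, the lectin chaperone calreticulin, fell by 0.14 (SE 0.035, adjusted p = 0.0170). The change without T16 replicate 3 was -0.16 for MANF, -0.17 for PDIA3 and -0.12 for CALR. The calls of MANF and CALR were also lost without T20 replicate 2 or 3. The serine synthesis genes PSAT1 and PHGDH were the 2 of 30 integrated stress response genes called, at -0.16 (SE 0.039, adjusted p = 0.0170) and -0.17 (SE 0.048, adjusted p = 0.0436), and neither passed without T16 replicate 3. PSAT1 lost its call in 4 of 12 alternatives and PHGDH in 9. PSMD8 (-0.18, SE 0.034, adjusted p = 0.00128) and PSMA2 (-0.14, SE 0.035, adjusted p = 0.0305) were the members called among 31 proteasome genes, and without T16 replicate 3 1 of the 31 was. PSMD8 lost its call in 1 of 12 alternatives, the fit of the 6 libraries alone, and PSMA2 in 8. HSP90AA1, the inducible cytosolic HSP90, was called among 17 heat shock genes (-0.10, SE 0.024, adjusted p = 0.0164), and lost its call without T16 replicate 1 or T20 replicates 2 or 3. KRT5, the basal keratin, had 60.1, 66.6 and 67.7 CPM at T20 and 83.1, 81.8 and 73.9 at T16, and fell by 0.30 (SE 0.067, adjusted p = 0.00895), a call lost without T20 replicate 1. CD44, the hyaluronan receptor, fell by 0.23 (SE 0.047, adjusted p = 0.00391) and lost its call without T20 replicate 1 or T16 replicate 3. KRT5 and CD44 were the 2 called of 16 basal keratinocyte markers. Without T16 replicate 3, 4 of the 16 were called lower, and without T20 replicate 1, 0 were. None of 29 junction genes, 9 simple epithelial markers or 15 differentiated keratinocyte markers was called by edgeR, with 2, 0 and 3 of them at an unadjusted p below 0.05, and DESeq2 called 1 junction gene, no simple epithelial marker and 1 differentiated marker.

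The strongest rise among the called and named genes ranked was that of a stress enzyme. HMOX1, heme oxygenase, which degrades heme and is a target of NRF2 and BACH1, had 41.0, 42.0 and 40.7 CPM at T20 and 26.6, 24.8 and 28.1 CPM at T16. The groups were far apart, and it rose by 0.64 (SE 0.076, adjusted p = 1.40e-06). The rest of the 28 NRF2 and antioxidant genes were split. SRXN1, sulfiredoxin, rose by 0.15 (SE 0.029, adjusted p = 0.00248), with 178 ± 3.60 CPM at T20 and 160.2 ± 1.81 at T16. TXN, thioredoxin, which overlaps another gene, fell by 0.21 (SE 0.038, adjusted p = 0.00117), and GPX4, the peroxidase of membrane lipids, by 0.22 (SE 0.044, adjusted p = 0.00244); the call of GPX4 was lost without T16 replicate 3. Over the list 3 genes rose and 5 fell, with a median of 0.01. These counts were 2 and 2 without T16 replicate 3; without T20 replicate 2 or 3 they were 2 and 3, and with the 6 libraries alone 1 and 2. TXN kept its call with each library left out.

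The other strong rises came from unrelated families. DZIP3, an E3 ubiquitin ligase that binds RNA, had 58.9, 55.9 and 55.5 CPM at T20 and 43.1, 42.5 and 43.5 at T16, and rose by 0.40 (SE 0.065, adjusted p = 2.23e-04). CHGB, the secretory granule protein chromogranin B, had 48.3, 43.7 and 40.2 CPM at T20 and 33.1, 33.6 and 34.6 at T16, and rose by 0.38 (SE 0.073, adjusted p = 0.00146). GTL2, the imprinted non-coding RNA also called MEG3, had 315, 319 and 340.3 CPM at T20 and 278, 269.8 and 216 at T16, where replicate 3 was the lowest, and rose by 0.35 (SE 0.056, adjusted p = 1.47e-04). These calls held with each library left out. COL24A1, a minor fibrillar collagen, rose by 0.34 (SE 0.062, adjusted p = 8.05e-04), unlike the collagens above. KAT6A, a histone acetyltransferase whose gene overlaps another, was the only one of 26 histone deacetylases and acetyltransferases called, where 2.33% of all genes were. It had 47.4, 47.4 and 50.5 CPM at T20 and 42.4, 41.9 and 36.8 at T16, and rose by 0.26 (SE 0.048, adjusted p = 9.66e-04). DTX3, a ligase of the Deltex family that acts in Notch signalling, stood at 7.78 ± 0.529 CPM at T20 and 5.36 ± 0.554 at T16. It rose by 0.54 (SE 0.13, adjusted p = 0.0168) and lost its call without T16 replicate 2 or T20 replicate 1. LAD1, a basement membrane protein of anchoring filaments, rose by 0.44 (SE 0.11, adjusted p = 0.0256), and TNFSF10, the death ligand TRAIL, by 0.31 (SE 0.079, adjusted p = 0.0227). ACTMAP (0.41), FERMT1 (0.35), PIWIL3 (0.34) and LY6G5B (0.34) complete the 12 strongest rises. Each of these 4 overlaps another annotated gene. These last 4, LAD1 and TNFSF10 all lost their calls without T16 replicate 3, and likewise without T20 replicate 3.

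A pair of growth-arrest genes was called higher, with calls that depended on single libraries. CDKN1A, the cell cycle inhibitor p21, had 64.6, 65.7 and 65.7 CPM at T20 and 57.5, 56.2 and 59.0 at T16, and rose by 0.18 (SE 0.049, adjusted p = 0.0361). BTG2, an antiproliferative p53 target, had 27.5, 26.3 and 27.0 CPM at T20 and 23.8, 23.7 and 23.4 at T16, and rose by 0.19 (SE 0.048, adjusted p = 0.0246). They were the members called among 24 G1 cyclins, CDK inhibitors and p53 targets. The call of CDKN1A was lost whichever single library of T16 or T20 was left out. That of BTG2 was lost without T16 replicates 2 or 3 and without T20 replicates 1 or 3. Of 41 mitosis genes edgeR and DESeq2 called none, with 3 at an unadjusted p below 0.05, and of 40 replication genes edgeR called none and DESeq2 1, with 9 at an unadjusted p below 0.05.

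The series was designed around circadian expression, and no clock gene passed the test between these harvests. Of 21 core clock genes listed 19 were measured, and 0 of 19 were called by edgeR, with 2 at an unadjusted p below 0.05, against 3000 of all 22488 genes. The list median was 0.06, and 13 of the 19 had a higher fitted level at T20. CRY1, a repressor of the loop, had 69.3, 74.5 and 71.3 CPM at T20 and 56.6, 66.6 and 62.2 at T16, and the groups were apart. Its difference was 0.21 (SE 0.063, adjusted p = 0.0665). RORA, an activator of BMAL1 transcription, had 15.0, 16.7 and 14.7 CPM at T20 and 13.3, 13.4 and 12.5 at T16, a difference of 0.24 (SE 0.071, adjusted p = 0.0625). By DESeq2 these 2 of the 19 passed, with an adjusted p of 0.0126 for CRY1 and 0.0238 for RORA. Over all alternatives the adjusted p ranged from 0.0126 to 0.273 for CRY1 and from 0.0238 to 0.326 for RORA. CRY1 overlaps other annotated genes.

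The activators and the other repressors were not called, and the SE was as large as 0.22 in NR1D1. CLOCK had 59.9, 64.3 and 62.8 CPM at T20 and 61.2, 61.5 and 56.8 at T16 (0.06, SE 0.040, adjusted p = 0.597), and BMAL1 had 42.5, 42.2 and 40.6 CPM at T20 and 39.3, 41.5 and 39.9 at T16 (0.05, SE 0.041, adjusted p = 0.681). In both genes the groups overlapped. PER1 stood at 8.72 ± 0.884 CPM at T20 and 8.04 ± 0.515 at T16 (0.12, SE 0.090, adjusted p = 0.665), and PER3 at 5.94 ± 0.906 CPM at T20 and 5.23 ± 0.480 at T16 (0.18, SE 0.13, adjusted p = 0.624). PER2 stood at 3.84 ± 0.585 CPM at T20 and 3.72 ± 0.142 at T16 (0.04, SE 0.18, adjusted p = 0.975), and CRY2 differed by 0.09 (SE 0.089, adjusted p = 0.792). NR1D2, a REV-ERB repressor, had 35.2, 36.5 and 37.3 CPM at T20 and 36.7, 36.8 and 35.7 at T16, with a difference of -0.003 (SE 0.046, adjusted p = 0.995). NR1D1 stood at 1.62 ± 0.411 CPM at T20 and 1.46 ± 0.134 at T16, a difference of 0.16 (SE 0.22, adjusted p = 0.874).

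Outputs of the clock were likewise not called, with 0 of 20 past edgeR's test or DESeq2's, 3 at an unadjusted p below 0.05 and a median of -0.0019. DBP, a direct target of CLOCK and BMAL1, had 2.07, 2.26 and 2.04 CPM at T20 and 2.42, 1.90 and 1.97 at T16. HLF, of the same PAR bZIP family, had 24.6, 22.3 and 23.6 CPM at T20 and 22.9, 24.4 and 24.0 at T16 (-0.02, SE 0.051, adjusted p = 0.969). NFIL3, the bZIP repressor that opposes them, had 69.5, 68.96 and 68.4 CPM at T20 and 66.2, 67.0 and 66.2 at T16 (0.05, SE 0.038, adjusted p = 0.629). KLF9, which responds to glucocorticoids and to the clock, differed by 0.11 (SE 0.047, adjusted p = 0.277), and TSC22D3, the glucocorticoid target GILZ, by 0.03 (SE 0.052, adjusted p = 0.928). Of 19 glucocorticoid targets GLUL, glutamine synthetase, was called. It had 466, 453 and 450.4 CPM at T20 and 408, 415 and 417 at T16, and rose by 0.14 (SE 0.034, adjusted p = 0.0151). That call was lost without T20 replicate 1 or T16 replicate 1. Of 25 genes of VFA and acid transport edgeR and DESeq2 called none, with 4 at an unadjusted p below 0.05. Among 36 genes of short-chain acid activation and ketone metabolism only ACAT1 was called, where 2.33% of all genes were. ACAT1, a thiolase of ketone body formation and use, fell by 0.11 (SE 0.032, adjusted p = 0.0471) and lost its call in 10 of 12 alternatives.

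**Figure D3:**
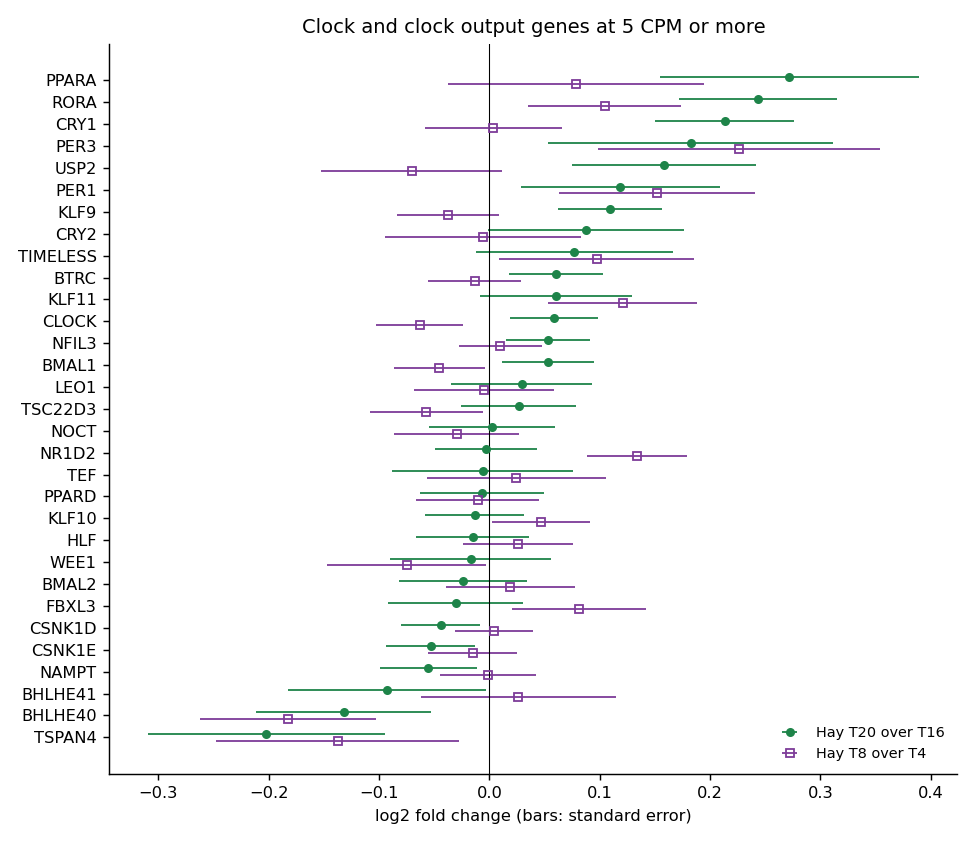
The x axis gives the log2 fold change with its standard error (bars) for each clock or clock output gene at 5 CPM or more, in Hay medium. Green circles are T20 over T16 and purple squares are T8 over T4, an interval 12 h earlier; no gene shown passed an adjusted p of 0.05 for T20 over T16, where CRY1 reached 0.21 and RORA 0.24.

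Most of the genes called between T20 and T16 had moved the opposite way earlier in Hay medium, between T12 and T8, an interval that shares no library with this one. Of the 417 genes lower at T20, 390 (93.5%) were higher at T12 than at T8, which is 8.83% of the 4417 genes higher in that interval (19.6% of all tested), and 3 were lower. Of the 107 genes higher at T20, 81 (75.7%) were lower at T12 than at T8, which is 2.19% of the 3693 lower genes (16.4% of all tested), and 1 was higher. The 417 and the 107 genes had medians of 105.1 and 40.5 CPM, against 5.62 for all tested genes. Shares among genes of like level were not computed, here or for the overlaps with other comparisons below. Relative to T0, the median level of the 417 genes on the log2 scale was -0.07 at T4, -0.12 at T8, 0.40 at T12, 0.29 at T16 and 0.10 at T20. That of the 107 genes was 0.07 at T4, 0.12 at T8, -0.27 at T12, -0.22 at T16 and -0.0017 at T20. Over all tested genes the medians ranged from -0.02 to 0.01. The values at T16 and T20 chose these sets, so their order there is fixed by the choice. Group means of 358 of the 417 genes (85.9%) were highest at T12, against 27.4% of all genes. Those of 63 of the 107 genes (58.9%) were lowest at T12 and those of 40 (37.4%) at T16, against 29.4% and 14.7% of all genes. By the choice of the set none of the 417 was highest at T20, against 9.53% of all genes, so these shares are not measured on like terms.

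ACTG2 shows that course in its group means. Its mean CPM in Hay medium was 17.2 ± 1.24 at T0, 11.4 ± 0.528 at T4, 6.86 ± 0.415 at T8, 95.4 ± 0.318 at T12, 59.2 ± 1.30 at T16 and 32.8 ± 0.712 at T20. TAGLN followed at 148 ± 3.19 at T0, 100.0 ± 4.23 at T4, 69.6 ± 3.66 at T8, 399.6 ± 20.7 at T12, 316 ± 23.9 at T16 and 214 ± 7.44 at T20. HMOX1 ran the other way, at 37.7 ± 3.22 at T0, 54.3 ± 1.94 at T4, 51.8 ± 4.76 at T8, 16.1 ± 0.322 at T12, 26.5 ± 1.64 at T16 and 41.3 ± 0.686 at T20. All 58 ribosomal proteins, 31 of 35 matrix genes, 19 of 22 cholesterol genes and 12 of 13 smooth muscle markers were higher at T12 than at T8. In the step between T12 and T16, 417 genes were higher and 1087 lower at T16; it shares its T16 libraries with the comparison here.

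The interval 12 h before, T8 against T4, held fewer calls. There 18 genes (0.08%) were higher at T8 and 92 (0.409%) were lower. Of the 417 genes lower at T20, 50 (12%) were also lower at T8 than at T4, which is 54.3% of those 92, and none was higher. Among the 107 genes higher at T20, 2 were higher at T8. TAGLN fell by 0.52 at T8 (adjusted p = 9.94e-08), ACTG2 by 0.73 (adjusted p = 8.62e-07) and COL6A3 by 0.36 (adjusted p = 5.81e-08). HMOX1 differed there by -0.07 (adjusted p = 0.930) and RPL3 by -0.06 (adjusted p = 0.677).

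**Figure D4:**
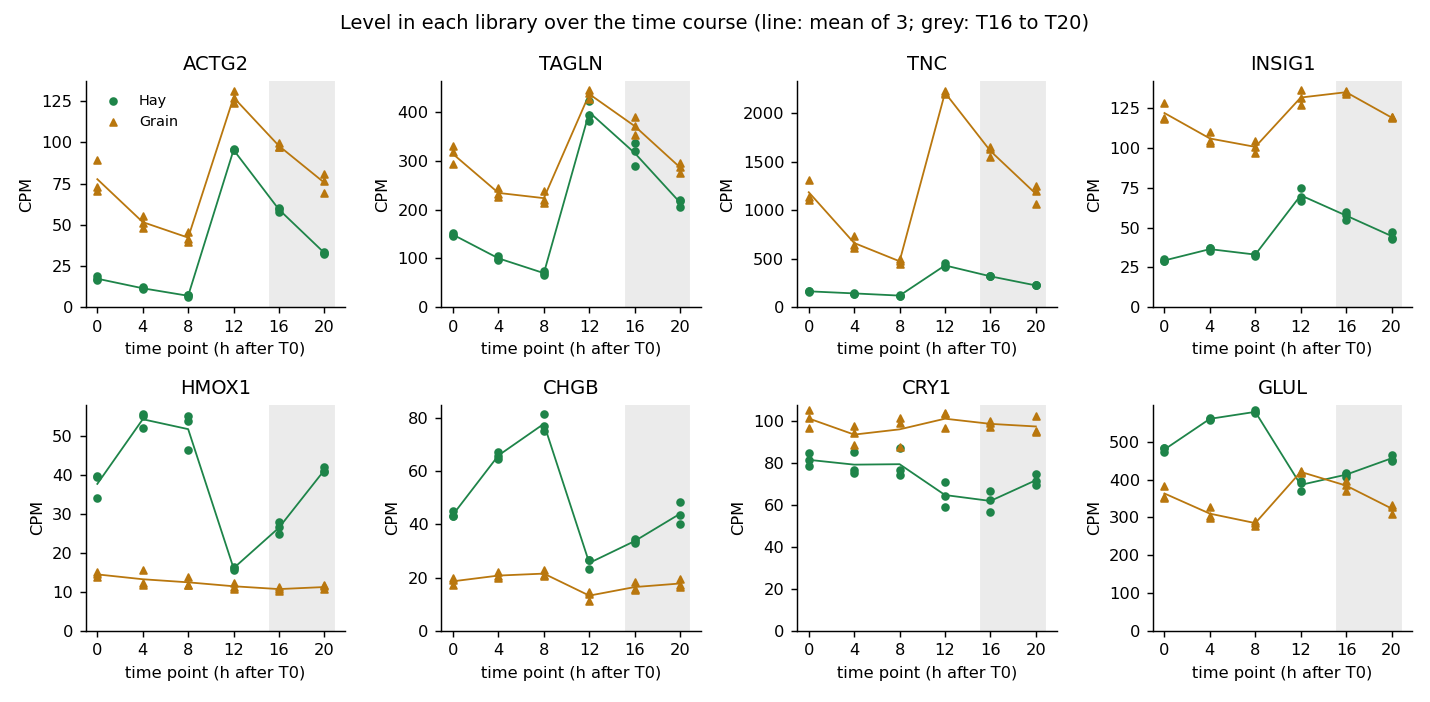
Each panel gives CPM (y axis, from 0) of one gene in every library over the time course (x axis, hours after T0), with Hay libraries as green circles, Grain libraries as orange triangles, lines through the means of 3, and grey over T16 to T20. ACTG2, TAGLN, TNC and INSIG1 stand highest at T12 in Hay medium and are lower at T20 than at T16, HMOX1 and CHGB run the other way, and CRY1 and GLUL are higher by 0.21 and 0.14 on the log2 scale at T20 than at T16.

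The same harvests in Grain medium, which share no library with those in Hay medium, held more calls, with 1526 genes (6.79%) higher and 1566 (6.96%) lower at T20. Of the 417 genes lower in Hay medium 222 (53.2%) were also lower in Grain medium, which is 14.2% of the genes lower there, and 4 were higher. Of the 107 higher genes 26 (24.3%, or 1.7% of those higher in Grain medium) were higher and 11 were lower. The change itself, Hay minus Grain, was tested over all genes, and 733 (3.26%) differed. Without Grain T20 replicate 1 that count was 475, and without Hay T16 replicate 3 it was 557. In 666 of the 733 the change was not called in Hay medium, in 35 it was a fall there and in 32 a rise.

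By the test of that difference 4 of 35 matrix genes and 1 of 13 smooth muscle markers differed, against 3.26% of all genes. Of 58 ribosomal proteins none did, with 1 at an unadjusted p below 0.05, and of 19 core clock genes none did, with 5 at an unadjusted p below 0.05. ACTA2 fell by 0.51 in Hay medium and by 0.47 in Grain medium (difference -0.04, SE 0.064, adjusted p = 0.825), and TNC by 0.51 in Hay and 0.46 in Grain medium (difference -0.04, SE 0.080, adjusted p = 0.860). COL3A1 fell by 0.21 in Hay and 0.30 in Grain medium (difference 0.09, SE 0.048, adjusted p = 0.365). These misses do not show that the media act alike.

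ACTG2, the strongest fall ranked in Hay medium, differed between the media. It fell by 0.85 in Hay and by 0.37 in Grain medium (difference -0.48, SE 0.090, adjusted p = 0.00141). HMOX1 rose by 0.64 in Hay medium and differed by 0.07 in Grain medium (difference 0.57, SE 0.12, adjusted p = 0.00301). Of 19 glucocorticoid targets 6 differed, against 3.26% of all genes. In other lists 4 of 20 clock outputs, 4 of 17 heat shock genes and 0 of 29 junction genes did. KLF9 is counted both among the clock outputs and among the glucocorticoid targets, so these counts are not separate. In Grain medium 9 of the 19 targets fell and 1 rose, where 6.96% of all genes fell and 6.79% rose. In Hay medium 1 of the 19 rose and 0 fell, where 0.476% of all genes rose and 1.85% fell. GLUL rose by 0.14 in Hay medium and fell by 0.25 in Grain medium (difference 0.39, SE 0.049, adjusted p = 9.52e-06), and BTG2 rose by 0.19 in Hay and fell by 0.26 in Grain medium (difference 0.45, SE 0.067, adjusted p = 7.91e-05). SGK1, the serum and glucocorticoid kinase, differed by 0.09 in Hay medium (adjusted p = 0.148) and fell by 0.25 in Grain medium (difference 0.34, SE 0.047, adjusted p = 3.41e-05). HSPA1A, the inducible HSP70, had 273, 250.3 and 264 CPM at T20 and 247, 247 and 258 at T16 in Hay medium (adjusted p = 0.512) and fell by 0.43 in Grain medium (difference 0.49, SE 0.058, adjusted p = 4.59e-06). SERPINB1, an inhibitor of neutrophil proteases, had 221, 217 and 226 CPM at T20 and 277, 261 and 286 at T16 in Hay medium. It fell by 0.31 there (SE 0.035, adjusted p = 4.09e-07), and its change in Grain medium was 0.10 (difference -0.41, SE 0.049, adjusted p = 5.22e-06). ANKRD1 fell by 0.20 in Hay medium and rose by 0.12 in Grain medium (difference -0.32, SE 0.045, adjusted p = 4.70e-05).

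**Figure D5:**
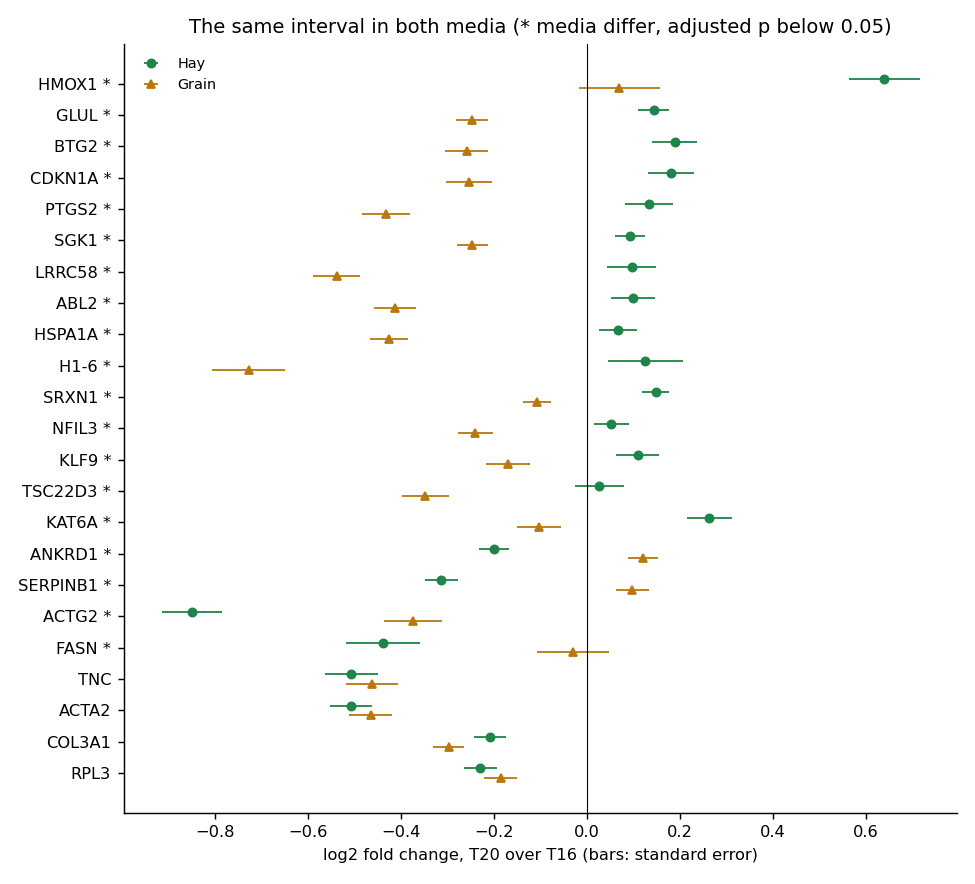
The x axis gives the log2 fold change of T20 over T16 with its standard error (bars) in Hay (green circles) and Grain medium (orange triangles) for 23 genes. Genes with an asterisk differed between the media at an adjusted p below 0.05; GLUL, BTG2, CDKN1A and SRXN1 lie right of zero in Hay and left of it in Grain medium, whereas TNC, ACTA2, COL3A1 and RPL3 lie left of zero in both.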

How the data were processed

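RNA was extracted with TRNzol and sequenced in paired ends on a NovaSeq from libraries made with a TruSeq v2 kit, which does not keep strand, per the labels' protocols. The authors used HISAT2 2.2.1, SAMtools 1.20 and StringTie 2.1.5, per the submitters' processing notes; the sources used here name neither the role of each tool nor the genome build, and no coordinates are given. The deposited table holds whole-number read counts per gene for the 36 libraries, without normalisation by the authors. Of its 35223 genes 2778 carried no symbol. A RefSeq table of assembly ARS-UI_Ramb_v3.0 held each of the 29910 distinct symbols and was used for names and for overlaps between genes.

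Groups were taken from the labels. Genes were kept by filterByExpr (minimum count 10, minimum total 15), scaled by TMM and tested with edgeR 4.0.16 (limma 3.58.1, R 4.3.3) in a model of 12 group means over all 36 libraries, which share one estimate of spread. Tests are two-sided with Benjamini-Hochberg adjustment over 22488 genes and a threshold of 0.05. SE is the log2 fold change over the root of the F statistic. The change in Hay minus that in Grain was one contrast. The procedure was tested on simulated counts. Alternatives were DESeq2 1.42.0, DESeq2 size factors, no filter, the replicate number as a block, smaller sets of libraries, and leaving out each library.

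Genes were named by rule: at least 5 CPM in either group and a symbol that is not an identifier such as a LOC number. The rule took the 12 strongest called rises and falls with the libraries apart and all clock genes. It also took up to 4 members per list by p, and the 8 smallest p for the difference between media. Some genes that met this rule are not reported here. Members and lists were chosen with earlier results of these data known.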

Additional observations from a re-analysis of the deposited data

Results flagged for a closer look

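Of the 100 genes followed here, 26 changed differently between T20 and T16 in Hay and in Grain medium by the test of the difference itself (edgeR, adjusted p below 0.05). Of the 100, 7 were named for that test and 75 had been called in Hay medium, whose libraries enter the difference, so the count is not set against that over all genes. Values are the log2 change in Hay medium minus that in Grain medium. The difference was positive in 16 genes and negative in 10, and in 5 the change was called in both media with opposite directions. Those 5 were GLUL (0.39), BTG2 (0.45), CDKN1A (0.44), SRXN1 (0.26) and ANKRD1 (-0.32). Their causes were not tested.

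Among genes called in Hay medium and not in Grain medium, the difference was 0.57 for HMOX1, 0.37 for KAT6A, -0.41 for SERPINB1, -0.52 for KLF2, -0.29 for JUNB, -0.21 for TGFB1, -0.41 for FASN, the fatty acid synthase, and -0.19 for IDI1, the isoprenoid isomerase.

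Genes called in both media in the same direction had differences of -0.48 for ACTG2, -0.51 for DZIP3 and 0.17 for COL6A3. ACTG2 fell more in Hay medium, COL6A3 fell more in Grain medium, and DZIP3 rose more in Grain medium.

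Genes called in Grain medium and not in Hay medium included 5 others named for the smallest p of the difference. These were LRRC58 (0.63), HSPA1A (0.49), ABL2 (0.51), PTGS2 (0.57) and H1-6 (0.85). PTGS2, the inducible cyclooxygenase, had 1422, 1382 and 1346 CPM at T20 and 1281, 1199 and 1302 at T16 in Hay medium (adjusted p = 0.207) and fell by 0.43 in Grain medium. In H1-6, a linker histone gene, T20 replicate 1 had 66.5 CPM and the other T20 libraries 54.8 and 52.5, against 53.3, 54.0 and 51.9 CPM at T16. The kinase gene SGK1 (0.34) and the clock output and glucocorticoid genes NFIL3 (0.29), KLF9 (0.28), TSC22D3 (0.37) and HLF (-0.27) belong here too. HSPA1A, PTGS2 and H1-6 overlap other annotated genes.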

How the results depend on the processing

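Of 75 named genes called between T20 and T16 in Hay medium, 35 kept their call in all 12 alternatives, and none of the 75 changed direction. Without T16 replicate 3, 26 of the calls were lost, and with the 6 libraries fitted alone 31 were. DESeq2 called 218 genes higher, against 107, and 576 lower. With the 6 libraries alone 27 were higher and 106 lower, and with the 12 libraries of T16 and T20 in both media 388 genes differed between the media, against 733. Leaving out one library gave 34 to 142 higher genes, 159 to 419 lower genes and 475 to 715 genes that differed between the media; the counts at the low ends came without T16 replicate 3 and without Grain T20 replicate 1. The other alternatives stayed within 1.5 times of each count.

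With the replicate number as a block, 103 genes were higher and 415 lower, and 676 differed between the media. Same-numbered Hay libraries of T20 and T16 deviated together with correlations of 0.04, 0.09 and -0.05. Those of differently numbered libraries ran from -0.21 to 0.15. With 3 libraries per group these values cannot decide whether the numbers pair the libraries. Under the block ACAT1 lost its call and RORA gained one (adjusted p = 0.0499). SGK1 was called by DESeq2 and in the 18 Hay libraries alone, and CRY1 by DESeq2 and without T16 replicate 2.

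Signs turned only in genes that were not called. NR1D2 was 0.0015 by DESeq2, 0.0014 with its size factors, 0.0013 without the filter, 0.0041 in the 6 libraries, 0.00089 in the 18 Hay libraries, and -0.022 to 0.020 with a library left out. With a library left out PER2 ran between -0.071 and 0.15, DBP between -0.048 and 0.13, TSC22D3 between -0.016 and 0.055, NR1D1 between -0.060 and 0.31, HLF between -0.048 and 0.022 and CDH1 between -0.0013 and 0.080. The cause was not tested. The standard errors of NR1D1, DBP and PER2 were 0.22, 0.18 and 0.18.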

Other observations

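Of 26 interferon response genes edgeR called none, with 6 at an unadjusted p below 0.05, and DESeq2 called 3, of which 2 were higher at T20 and 1 lower. Of 18 osmotic and volume regulators edgeR called none, with 3 at an unadjusted p below 0.05, and DESeq2 called 2, both higher. Among 30 lysosome and autophagy genes NPC2, a cholesterol-binding protein of the lysosome, was the only one called, where 2.33% of all genes were. It had 221, 225 and 222 CPM at T20 and 238, 241 and 256 at T16, and fell by 0.14 (log2; SE 0.033, adjusted p = 0.0125), a call lost without T16 replicate 3, T20 replicate 1 or T20 replicate 3. Of 13 immune cell markers neither tool called any and none had an unadjusted p below 0.05. KRT8, a keratin of simple epithelium, had 76.9, 75.6 and 81.9 CPM at T20 and 83.8, 86.9 and 77.9 at T16 (-0.08, SE 0.059, adjusted p = 0.616), and the groups overlapped.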
